A study of Mus musculus with 30 samples.

Results

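A set of 9 genes was followed, whose products let macrophages signal to T cells: Cd80, Cd86, Icosl, Cd274, Pdcd1lg2, Cd276, Cd40, Tnfrsf9 and Tnfsf9. They were chosen by name, with earlier results of these data known. Each is the entry of the count tables whose Ensembl identifier carries its symbol. Together they are 9 of the 43629 gene identifiers counted in each of 30 RNA-seq libraries. All 9 passed the filter on low counts in both experiments. The cells were C57BL/6 bone marrow derived macrophages, grown for 7 days in 20 ng/mL CSF-1. This macrophage growth factor was part of the culture of every group, the unstimulated ones included. In the wild type experiment the groups were 20 ng/mL IL-4 with 10 μM PGE2, IL-4 with 10 nM valinomycin, IL-4 alone and no stimulus, with 3 libraries each. In the shRNA experiment, macrophages carrying an Etv1 shRNA or a Control shRNA from lentiviral particles received IL-4 with PGE2, IL-4 alone or no stimulus, again with 3 libraries per group. IL-4 is the cytokine of alternative macrophage activation, PGE2 a lipid mediator that raises cyclic AMP through its receptors, valinomycin a potassium carrier that lowers the mitochondrial membrane potential, and ETV1 an ETS family transcription factor. The study asked how nuclear gene expression follows that potential under PGE2. How long the cells were stimulated, how many hairpin sequences were used and what the control hairpin targets are not given in the sources used here, nor whether replicates came from separate animals, so p-values measure the spread between these libraries.

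T cells read antigen through their receptor but need further signals from the presenting cell. CD80 and CD86 (the B7 proteins) deliver the activating signal through CD28 and are also bound by the inhibitory receptor CTLA-4, and ICOS ligand, the product of Icosl, engages ICOS. PD-L1 (Cd274) and PD-L2 (Pdcd1lg2) bind PD-1 and dampen T cells, and CD276 (B7-H3) is a B7 family member with mostly inhibitory reports. In the tumour necrosis factor system, CD40 on the macrophage receives CD40 ligand from helper T cells, and 4-1BB ligand (Tnfsf9) on the presenting cell engages 4-1BB (Tnfrsf9), a receptor best known from activated T cells. Macrophages at rest usually hold low amounts of these ligands and raise them on activation.

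In the GRCm38 annotation (GENCODE M21), Cd274 (ENSMUSG00000016496) lies on chromosome 19 from 29367455 to 29388095. Pdcd1lg2 (ENSMUSG00000016498) follows from 29410919 to 29471161 on the same, plus strand, 22823 bases on and with 0 genes between them. Cd86 (ENSMUSG00000022901, 36603869 to 36666081, minus strand) and Cd80 (ENSMUSG00000075122, 38455561 to 38496335, plus strand) share chromosome 16, 1789479 bases apart. Cd40 (ENSMUSG00000017652) is on chromosome 2 from 165055627 to 165072948 and Tnfrsf9 (ENSMUSG00000028965) on chromosome 4 from 150914562 to 150946102. Cd276 (ENSMUSG00000035914) is on chromosome 9 from 58524298 to 58555437 and Icosl (ENSMUSG00000000732) on chromosome 10 from 78069302 to 78083913. Tnfsf9 (ENSMUSG00000035678) is on chromosome 17 from 57105325 to 57107757. Antisense genes share exon bases with Cd274, Tnfsf9 and Cd276. The libraries were stranded but the strand setting of the counting is not given, so reads of such partners cannot be told apart from the member's own. The partner of Tnfsf9, Gm11110, held 23 to 115 counts per library and that of Cd276, Gm10657, 0 to 4 counts. AC119228.1, the partner of Cd274, was not among the gene identifiers counted, so its level is not known here.

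RefSeq promoter windows (GRCm38.p6, from 250 bases before to 50 bases after a start) were at hand for 6 of the 9 genes, in 7 windows. Cd86, Cd40 and Tnfsf9 had none. The 4 printed here, chosen among the genes with a window, belong to Pdcd1lg2, Cd80 and Tnfrsf9, which the results below turn on, and to Cd274, the neighbour of Pdcd1lg2. Capitals mark matches, on either strand, to the motifs searched. These were a cyclic AMP response element (TGACGTCA, held by 1.79% of 32841 promoter windows) and the short core within it (TGACG, 20.8%), a STAT6 site (TTCNNNNGAA, 6.95%), the STAT site with a shorter spacer (TTCNNNGAA, 8.3%), an interferon response element (GAAANNGAAA, 3.44%), an AP-1 site (TGANTCA, 7.81%), an ETS site (CCGGAA, 14.9%) and an NF-kB site (8.46%).
Pdcd1lg2, chr19:29410669-29410968, plus strand: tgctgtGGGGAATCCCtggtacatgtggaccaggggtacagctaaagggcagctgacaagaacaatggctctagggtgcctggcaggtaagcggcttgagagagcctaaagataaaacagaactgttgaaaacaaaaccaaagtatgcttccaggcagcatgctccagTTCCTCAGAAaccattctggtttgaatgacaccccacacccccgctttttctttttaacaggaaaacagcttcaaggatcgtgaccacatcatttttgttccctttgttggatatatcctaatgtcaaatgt
Cd274, chr19:29367188-29367487, plus strand: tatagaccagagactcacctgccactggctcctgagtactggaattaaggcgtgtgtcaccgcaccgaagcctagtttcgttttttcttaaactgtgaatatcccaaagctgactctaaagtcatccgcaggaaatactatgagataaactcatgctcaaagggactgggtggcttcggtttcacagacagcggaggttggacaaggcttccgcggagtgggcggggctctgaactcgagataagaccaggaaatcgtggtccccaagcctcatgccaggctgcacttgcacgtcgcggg
Cd80, chr16:38458683-38458982, plus strand: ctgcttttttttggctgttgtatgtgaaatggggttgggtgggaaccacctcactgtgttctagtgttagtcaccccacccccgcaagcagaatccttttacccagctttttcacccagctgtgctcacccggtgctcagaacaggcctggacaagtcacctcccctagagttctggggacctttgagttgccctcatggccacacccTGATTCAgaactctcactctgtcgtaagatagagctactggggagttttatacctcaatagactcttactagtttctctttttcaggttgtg
Tnfrsf9, second of its windows, chr4:150927749-150928048, plus strand: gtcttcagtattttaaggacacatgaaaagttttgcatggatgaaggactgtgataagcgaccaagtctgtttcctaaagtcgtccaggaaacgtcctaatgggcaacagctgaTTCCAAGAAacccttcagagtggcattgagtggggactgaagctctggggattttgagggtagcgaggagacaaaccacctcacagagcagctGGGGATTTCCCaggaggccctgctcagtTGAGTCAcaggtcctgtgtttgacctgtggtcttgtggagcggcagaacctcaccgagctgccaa
The Pdcd1lg2 window held the STAT6 letters at positions -82 to -73 from the start. Its letters at -244 to -235 matched the NF-kB site on both strands. The Cd80 window held 1 AP-1 match (-42 to -36), the second Tnfrsf9 window an AP-1 match (-15 to -9), overlapping NF-kB matches and the shorter STAT letters, and the Cd274 window matched 0 of the 8 motifs. The first Tnfrsf9 window, not printed here, also matched 0 of the 8. Of the windows not printed, that of Cd276 held an ETS match (-141 to -136) and that of Icosl an NF-kB match (-111 to -102). No other window matched the ETS site. Neither cyclic AMP motif was found in any of the 7 windows. A match is a description of letters, not a site shown to be used.

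The 12 wild type libraries held 10514496 to 13414293 counts each and the 18 shRNA libraries 6924973 to 30473040. Levels are given as CPM, that is, counts relative to the library's scaled total. The scaling was done within each experiment, so levels are compared only there. In these bulk libraries, fewer expressing cells and less RNA per cell cannot be told apart. As the check of the hairpin, Etv1 stood at 2.51 to 9.86 CPM in the 9 Etv1 shRNA libraries and 10.4 to 33.1 CPM in the 9 Control shRNA libraries. Macrophage markers were high throughout (a sum of 7560 CPM or more over 8 genes), and lymphocyte markers summed to at most 11.1 CPM. Neutrophil markers summed to 166 to 282 CPM in wild type and at most 7.04 CPM in the shRNA libraries. Between hairpins the macrophage sum differed, at 7560 to 8890 CPM under the Etv1 hairpin against 14900 CPM or more under the control hairpin. Within the shRNA groups the replicate 2 libraries stood apart for several members: replicate 2 was the highest of its group for Cd274 and Cd276 in 6 of 6 groups and the lowest for Cd86 in 6 of 6. Results in that experiment that rest on those libraries are given with and without them, a check added after seeing the data.

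**Figure D1:**
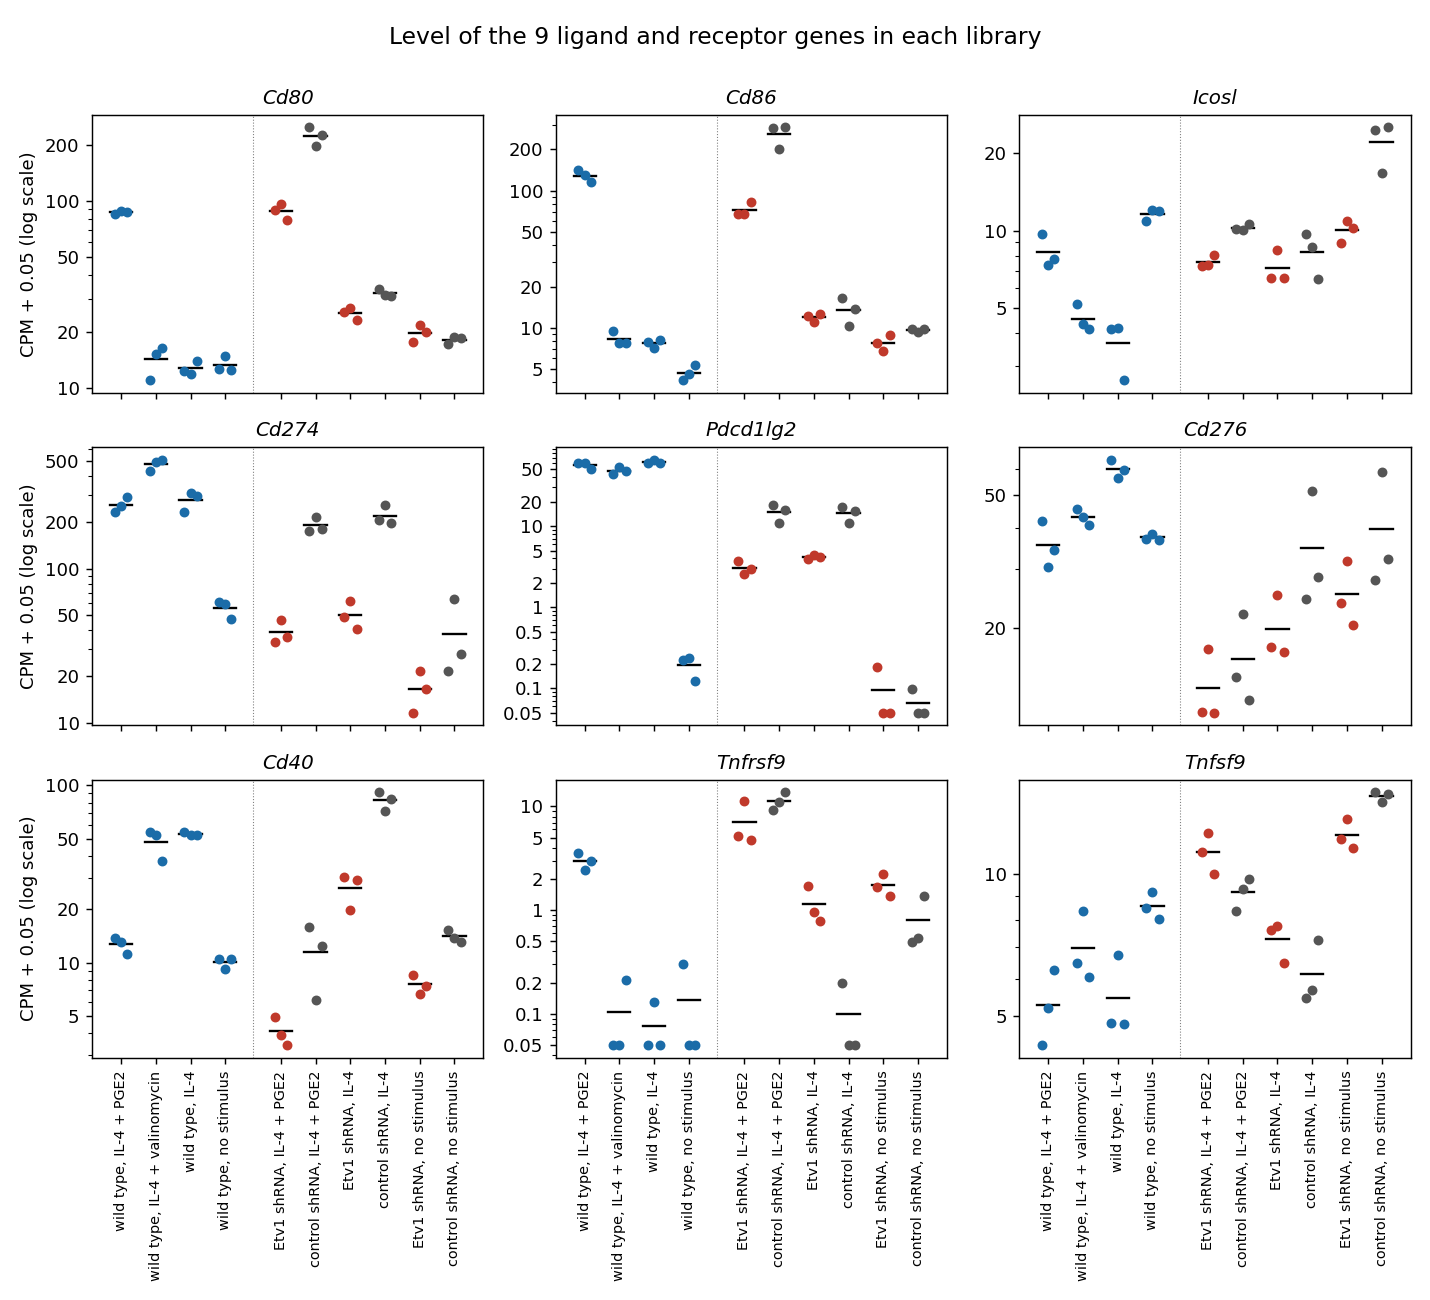
Level of each gene in every library (CPM + 0.05, log axis), 3 points per group with the mean as a bar; wild type groups stand left of the dotted line (blue), Etv1 shRNA (red) and Control shRNA (grey) groups right of it. Cd80 and Cd86 are high only in the IL-4 + PGE2 groups, Cd40 is high with IL-4 and low again with PGE2, and Pdcd1lg2 is near the floor only without IL-4.

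With PGE2 on top of IL-4 in wild type cells, the B7 costimulators, Icosl and Tnfrsf9 rose, and Cd40 and Cd276 fell. Neither PD-1 ligand passed the test. Of the 9 genes 4 rose, against 29.9% of 12824 genes tested, and 2 fell, against 29.5% (edgeR adjusted p under 0.05). The members' median absolute log2 change was 1.20, against 0.32 over all tested genes. As the members were chosen with earlier results known, this gap is a description only. Cd86, a CD28 ligand, had 141, 130 and 116 CPM with IL-4 and PGE2, 9.48, 7.63 and 7.69 CPM with IL-4 and valinomycin, 7.85, 7.02 and 8.05 CPM with IL-4 alone and 4.09, 4.56 and 5.28 CPM unstimulated. All 3 PGE2 libraries lay far above the other 9. Cd80, which binds the same receptors with higher affinity, had 84.6, 88.0 and 87.4 CPM with IL-4 and PGE2, against 12.3, 11.8 and 13.9 CPM with IL-4. Its 9 libraries without PGE2 all lay between 10.9 and 16.4 CPM, so that only the PGE2 libraries stood apart. Against no stimulus the rise was 4.78 ± 0.10 on the log2 scale for Cd86 (SE, adjusted p = 7.24e-22) and 2.71 ± 0.10 for Cd80 (adjusted p = 9.43e-17), n = 3 libraries per group.

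Icosl, the gene of the ICOS ligand, was lower with IL-4 and partly higher again with PGE2. It had 9.66, 7.29 and 7.69 CPM with IL-4 and PGE2, 5.12, 4.29 and 4.09 CPM with IL-4 and valinomycin, 4.10, 4.15 and 2.58 CPM with IL-4 and 10.8, 12.01 and 11.9 CPM unstimulated. IL-4 lowered it in all 3 libraries (-1.69 ± 0.16, adjusted p = 4.48e-09), and the PGE2 libraries lay above the IL-4 libraries (1.20 ± 0.17, adjusted p = 1.75e-06) yet below the unstimulated ones (-0.48 ± 0.14, adjusted p = 0.00422). The IL-4 libraries enter both of the first comparisons, with opposite roles. Valinomycin did not pass the test for Icosl (0.33 ± 0.19, adjusted p = 0.178).

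The PD-1 ligands followed IL-4. Cd274, which encodes PD-L1, had 233, 257 and 292 CPM with IL-4 and PGE2, 430, 490 and 509 CPM with IL-4 and valinomycin, 234, 312 and 296 CPM with IL-4 and 60.9, 59.0 and 47.2 CPM unstimulated. The valinomycin libraries were the highest, with no overlap with either of the other IL-4 groups, and PGE2 and IL-4 libraries overlapped. Valinomycin raised Cd274 by 0.76 ± 0.13 over IL-4 (adjusted p = 0.00166), IL-4 raised it by 2.34 ± 0.15 over no stimulus (adjusted p = 9.4e-07), and PGE2 differed from IL-4 by -0.11 ± 0.14 (adjusted p = 0.509). Pdcd1lg2, which encodes PD-L2, had 5 counts in all over the unstimulated libraries (0.170, 0.186 and 0.0733 CPM) and 59.5, 65.5 and 59.7 CPM with IL-4 (2268 counts). It had 59.4, 59.4 and 49.9 CPM with IL-4 and PGE2 and 43.8, 52.9 and 47.8 CPM with IL-4 and valinomycin. Valinomycin thus left it lower than IL-4 alone in all 3 libraries (-0.36 ± 0.07, adjusted p = 0.000495), the opposite sign to its neighbour Cd274, while PGE2 did not pass the test (-0.13 ± 0.07, adjusted p = 0.138), although its libraries all lay just below those with IL-4. The value against no stimulus stayed high with PGE2 (8.57 ± 0.20, adjusted p = 7.41e-21) and with valinomycin (8.34 ± 0.21, adjusted p = 5.78e-20).

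Cd276, the B7-H3 gene, rose with IL-4 to 63.9, 56.4 and 59.5 CPM, against 37.0, 38.4 and 36.7 CPM unstimulated (0.68 ± 0.08, adjusted p = 5.65e-07). It was lower than with IL-4 alone in both combinations: 41.8, 30.4 and 34.3 CPM with PGE2 (-0.75 ± 0.08, adjusted p = 1.13e-07) and 45.5, 43.1 and 40.8 CPM with valinomycin (-0.47 ± 0.08, adjusted p = 9.22e-05). The PGE2 libraries overlapped the unstimulated ones.

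Cd40, the receptor for CD40 ligand, fell to 13.8, 12.96 and 11.2 CPM with IL-4 and PGE2, against 54.7, 52.3 and 52.4 CPM with IL-4 (-2.06 ± 0.12, adjusted p = 3.61e-10). With IL-4 and valinomycin it had 54.3, 52.2 and 37.3 CPM, and unstimulated 10.47, 9.12 and 10.4 CPM. The IL-4 rise (2.40 ± 0.13, adjusted p = 9.77e-11) thus went with a PGE2 level just above the unstimulated libraries, a difference of 0.34 ± 0.16 that did not pass the test (adjusted p = 0.0786) but passed without the filter on low counts (adjusted p = 0.00964) and with the contrast's groups fitted alone (adjusted p = 0.0165). Valinomycin differed from IL-4 by -0.15 ± 0.10 (adjusted p = 0.28).

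Of the 4-1BB pair, the receptor gene was near the floor in wild type cells except with PGE2. Tnfrsf9 had 3.53, 2.40 and 2.92 CPM with IL-4 and PGE2 (104 counts in all), against 2 counts with IL-4 and valinomycin, 1 count with IL-4 and 3 counts unstimulated over 3 libraries each. The ratio of PGE2 with IL-4 over IL-4 was 109-fold (95% counting interval 19.2 to 4360, adjusted p = 1.42e-08), and over no stimulus 35.8-fold (11.9 to 176, adjusted p = 3.01e-08). These intervals cover counting error only. The ligand gene Tnfsf9 was lower with IL-4, at 4.80, 6.70 and 4.77 CPM, than unstimulated, at 8.43, 9.12 and 7.99 CPM (-0.64 ± 0.16, adjusted p = 0.002), and stood at 4.30, 5.15 and 6.23 CPM with IL-4 and PGE2 (-0.07 ± 0.18 from IL-4, adjusted p = 0.743). So in wild type cells with PGE2 the receptor rose while its ligand did not pass the test.

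**Figure D2:**
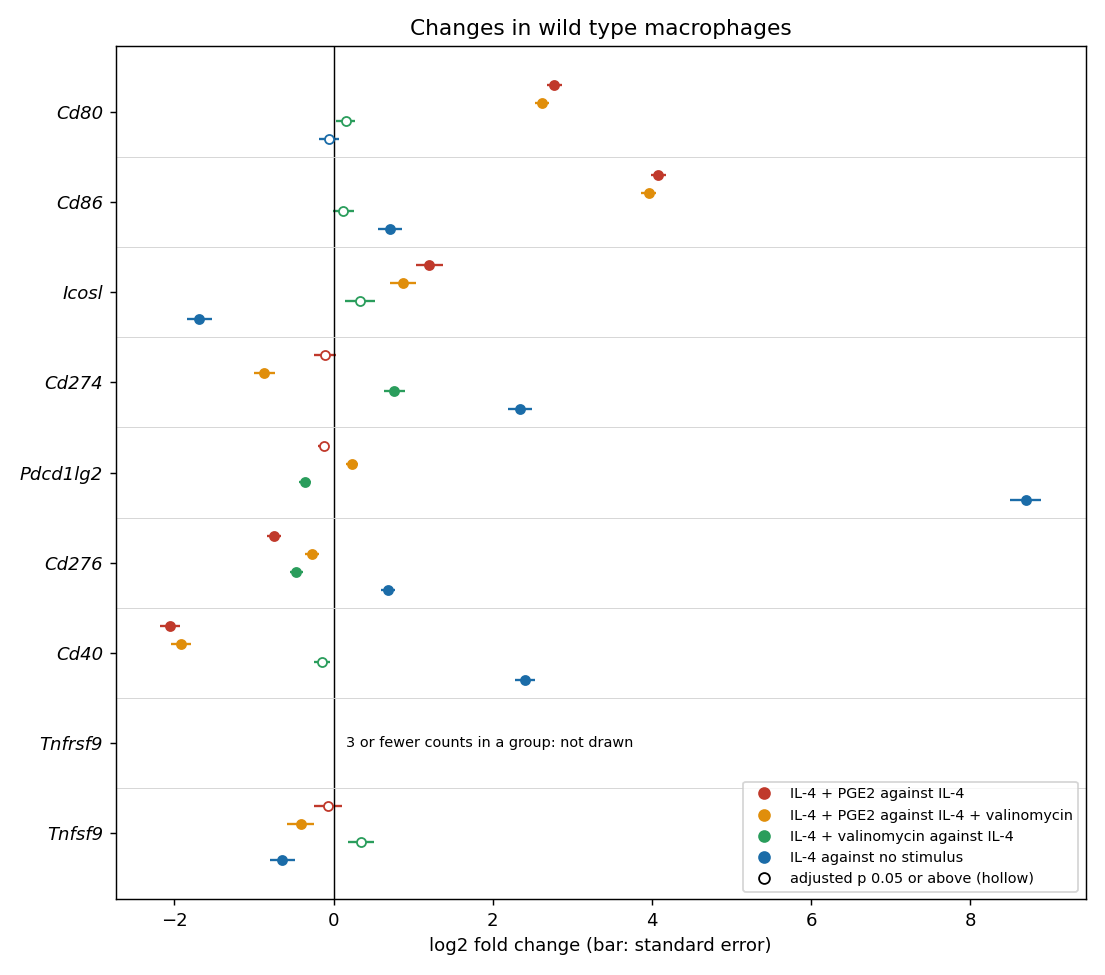
Log2 fold change of each gene in 4 wild type comparisons (x axis, bar: SE, n = 3 per group); filled points passed the test. PGE2 points of Cd80 (2.77 and 2.62) and Cd86 (4.08 and 3.96) lie far right of 0 whether set against IL-4 or against IL-4 with valinomycin, and those of Cd40 (-2.06 and -1.91) far left; Tnfrsf9 is not drawn.

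Valinomycin and PGE2 moved few of these genes alike. With valinomycin on IL-4, 1 of the 9 rose (Cd274), against 19.4% of tested genes, and 2 fell (Pdcd1lg2 and Cd276), against 18.9%, with a median absolute log2 change of 0.34 (all genes 0.20). Set directly against IL-4 with valinomycin, PGE2 was higher for 5 of the 9, against 31.7% of tested genes, and lower for 4, against 31.5%. The higher ones were Cd86 (3.96 ± 0.09, adjusted p = 1.78e-20), Cd80 (2.62 ± 0.09, adjusted p = 2.83e-16), Tnfrsf9 (55.3-fold, counting interval 14.9 to 463, adjusted p = 1.73e-08), Icosl (0.87 ± 0.16, adjusted p = 5.54e-05) and Pdcd1lg2 (0.23 ± 0.07, adjusted p = 0.0106). The lower ones were Cd40 (-1.91 ± 0.13, adjusted p = 8.35e-10), Cd274 (-0.87 ± 0.13, adjusted p = 0.000321), Cd276 (-0.28 ± 0.09, adjusted p = 0.00869) and Tnfsf9 (-0.41 ± 0.17, adjusted p = 0.0368). The libraries overlapped for Pdcd1lg2, Cd276 and Tnfsf9, and these calls were fragile. Pdcd1lg2 lost its call without IL-4 with PGE2 replicate 1 or 2 or IL-4 with valinomycin replicate 1 (0.15 to 0.19, adjusted p 0.0639 to 0.0960) and in DESeq2 (adjusted p = 0.0577). Tnfsf9 lost it without PGE2 replicate 1 or 2 or valinomycin replicate 2 (-0.41 to -0.28, adjusted p 0.0784 to 0.19) and in DESeq2 (adjusted p = 0.0885), and Cd276 without PGE2 replicate 2 (-0.17, adjusted p = 0.0833).

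Over no stimulus, IL-4 alone raised 5 of the 9 (Pdcd1lg2, Cd40, Cd274, Cd86 and Cd276), against 24% of tested genes, and lowered 2 (Icosl and Tnfsf9), against 22.4%. The Cd86 rise was small (0.71 ± 0.15, adjusted p = 0.000457), and Cd80 differed by -0.06 ± 0.12 (adjusted p = 0.73). IL-4 with PGE2 raised 5 over no stimulus (30.1% of tested genes) and lowered 2 (28.6%). IL-4 with valinomycin raised 5 (26.9%) and lowered 1 (25.8%). The fifth gene raised by valinomycin with IL-4, Cd276 (0.21 ± 0.09, adjusted p = 0.0448), had no call in DESeq2 (adjusted p = 0.0842) or without normalization factors (adjusted p = 0.121), nor without unstimulated replicate 1, 2 or 3 or valinomycin replicate 1 or 2 (0.18 to 0.23, adjusted p 0.0657 to 0.146). These comparisons share the unstimulated libraries.

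Per kb of exon, Cd274 was the most abundant of the 9 in every wild type group. With IL-4 and PGE2 it stood at 71.9 ± 8.25 CPM per kb, followed by Cd86 at 35.2 ± 3.43, Pdcd1lg2 at 28.7 ± 2.79 and Cd80 at 23.4 ± 0.484 CPM per kb (SD, n = 3). With IL-4 alone the order was Cd274 (77.5 ± 11.4), Pdcd1lg2 (31.4 ± 1.75), then Cd276 (16.4 ± 1.04) and Cd40 (15.6 ± 0.392), which did not differ beyond their spread. Tnfsf9 (4.20 ± 0.858) and Cd80 (3.42 ± 0.298), likewise within their spread, came next, and then Cd86 (2.09 ± 0.15). Cd86 was thus next in rank to Cd274 with PGE2, at a lower level beyond their spread, and with IL-4 alone it ranked below all but Icosl and Tnfrsf9. Unstimulated cells had Cd274 at 15.4 ± 2.06 and Cd276 at 10.2 ± 0.246 CPM per kb at the top, and Pdcd1lg2 and Tnfrsf9 at the bottom with 5 and 3 counts.

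**Figure D3:**
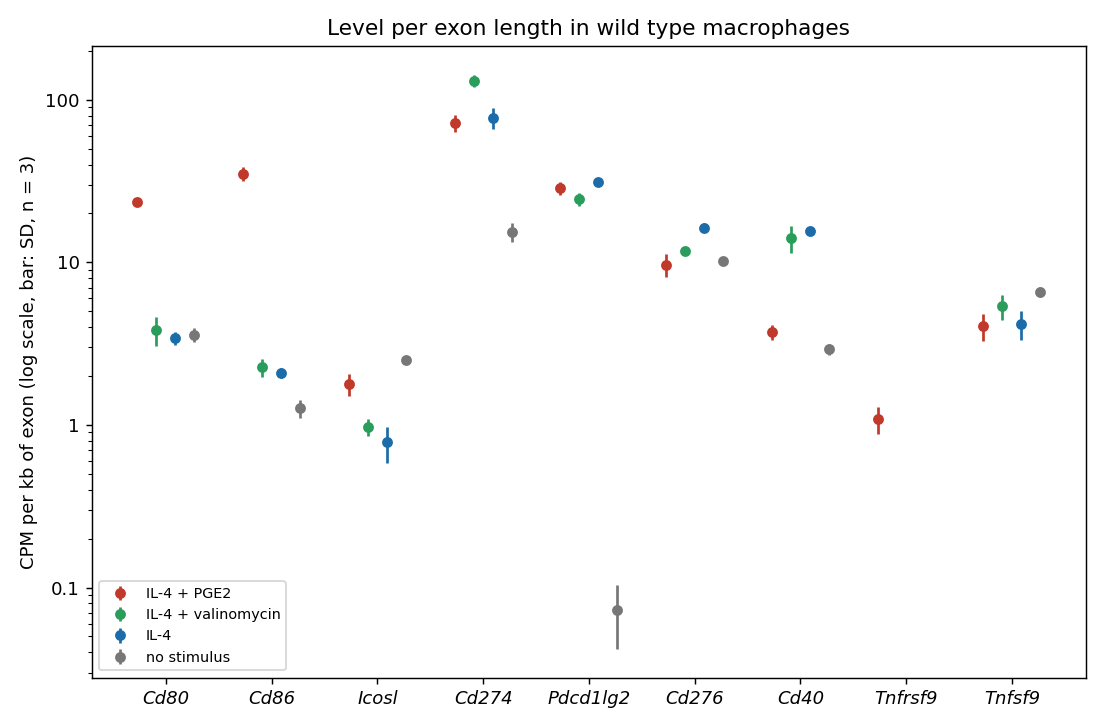
Mean level per kb of exon in the 4 wild type groups (log axis, bar: SD, n = 3), with groups of 3 or fewer counts left out. The red points (IL-4 + PGE2) of Cd80 and Cd86 stand at 23.4 and 35.2 CPM per kb, far above the other groups of these genes.

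Macrophages with the Control shRNA gave a separate set of libraries for the same stimuli. IL-4 raised 4 of the 9 (Pdcd1lg2, Cd274, Cd40 and Cd80), against 17.2% of 12382 tested genes, and lowered 3 (Icosl, Tnfsf9 and Tnfrsf9), against 17.1%. PGE2 on IL-4 raised 4 (Cd86, Cd80, Tnfrsf9 and Tnfsf9), against 29.3%, and lowered 2 (Cd40 and Cd276), against 30.1%. Cd80 differed from wild type in that IL-4 alone raised it, to 33.8, 31.2 and 31.1 CPM, against 17.0, 18.8 and 18.3 CPM unstimulated (0.84 ± 0.10, adjusted p = 1.16e-06), a difference between experiments that was not tested. The fall of Tnfrsf9 with IL-4, to 2 counts against 28 counts unstimulated (ratio 0.0968, counting interval 0.0112 to 0.384, adjusted p = 0.0368), lost its call without any of the 3 IL-4 libraries or unstimulated replicate 2 or 3 (adjusted p 0.0512 to 0.109) and without the filter on low counts (adjusted p = 0.108). Icosl, called in wild type, did not pass the test with PGE2 here (0.30 ± 0.17, adjusted p = 0.121), but did without IL-4 replicate 1 (0.46, adjusted p = 0.0483). Tnfsf9 rose to 8.29, 9.27 and 9.74 CPM with PGE2, against 5.42, 5.65 and 7.21 CPM with IL-4 (0.61 ± 0.13, adjusted p = 0.000467). Cd276 fell with PGE2 to 14.2, 21.9 and 12.1 CPM, against 24.3, 51.6 and 28.4 CPM with IL-4 (-1.15 ± 0.38, adjusted p = 0.0195). That call was lost without IL-4 replicate 2 or PGE2 replicate 1 or 3 (-1.10 to -0.77, adjusted p 0.0533 to 0.106) and held without all replicate 2 libraries (-1.03, adjusted p = 5.12e-08).

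Under the Etv1 hairpin, the PGE2 rise of the B7 costimulators was smaller. Cd86 had 67.4, 67.1 and 82.3 CPM with IL-4 and PGE2 in Etv1 shRNA cells, against 286, 200 and 289 CPM in Control shRNA cells, with no overlap (-1.84 ± 0.14, adjusted p = 2.96e-08). Before PGE2, with IL-4 alone, it had 12.2, 11.1 and 12.6 CPM in Etv1 shRNA cells and 16.4, 10.3 and 13.6 CPM in Control shRNA cells, which overlapped (-0.20 ± 0.19, adjusted p = 0.421). Cd80 had 88.8, 96.4 and 79.0 CPM with PGE2 in Etv1 shRNA cells, against 247, 198 and 224 CPM in Control shRNA cells (-1.34 ± 0.08, adjusted p = 1.36e-10). With IL-4 alone Cd80 had 25.4, 26.8 and 23.1 CPM in Etv1 shRNA cells, against 33.8, 31.2 and 31.1 CPM in Control shRNA cells (-0.36 ± 0.10, adjusted p = 0.00492), a call lost without normalization factors (-0.23, adjusted p = 0.0525). PGE2 still raised both genes under the Etv1 hairpin, Cd86 by 2.60 ± 0.17 (adjusted p = 8.14e-09) and Cd80 by 1.81 ± 0.09 (adjusted p = 1.35e-11). Cd86 had no call with IL-4 against no stimulus under either hairpin (0.63 ± 0.21 and adjusted p = 0.052 in Etv1 shRNA cells, 0.51 ± 0.19 and adjusted p = 0.0539 in Control shRNA cells). Without the replicate 2 libraries it passed under both (0.57, adjusted p = 0.00581, and 0.64, adjusted p = 0.000202, in the same order). Of the 9 genes, 4 rose with PGE2 under the Etv1 hairpin, against 24.6% of tested genes, and 1 fell, against 22.8%: Cd86, Cd80, Tnfrsf9 and Tnfsf9 rose and Cd40 fell. Without the replicate 2 libraries Cd276 (-0.64, adjusted p = 0.000425) and Cd274 (-0.36, adjusted p = 0.0375) fell as well.

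The difference of the PGE2 effects, Etv1 minus Control shRNA, was tested itself. It was called negative for 3 of the 9 (5.58% of tested genes) and called positive for 0 (6.03%). Cd86 gave -1.64 ± 0.24 (adjusted p = 0.000405) and Cd80 -0.98 ± 0.13 (adjusted p = 5.96e-05), and both held without the replicate 2 libraries (-1.65 and -1.05). Tnfrsf9, the third, rests on 2 counts in the Control shRNA group with IL-4. It had 5.13, 11.3 and 4.67 CPM with PGE2 in Etv1 shRNA cells and 9.27, 11.02 and 13.7 CPM in Control shRNA cells, but 1.66, 0.921 and 0.744 CPM with IL-4 alone in Etv1 shRNA cells (34 counts) against those 2 counts in Control shRNA cells. The PGE2 rise of Tnfrsf9 was 194-fold in Control shRNA cells (counting interval 53.4 to 1600, adjusted p = 4.4e-08) and 2.65 ± 0.42 on the log2 scale in Etv1 shRNA cells (adjusted p = 6.13e-05), so the ratio between the hairpin groups was larger before PGE2 was added. Cd40 fell with PGE2 under both hairpins, by 2.70 ± 0.27 in Etv1 shRNA cells (adjusted p = 1.26e-06) and by 2.83 ± 0.22 in Control shRNA cells (adjusted p = 3.85e-08), and the difference did not pass the test (0.13 ± 0.37, adjusted p = 0.881). The Tnfsf9 rise was 0.61 ± 0.13 under both hairpins.

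**Figure D4:**
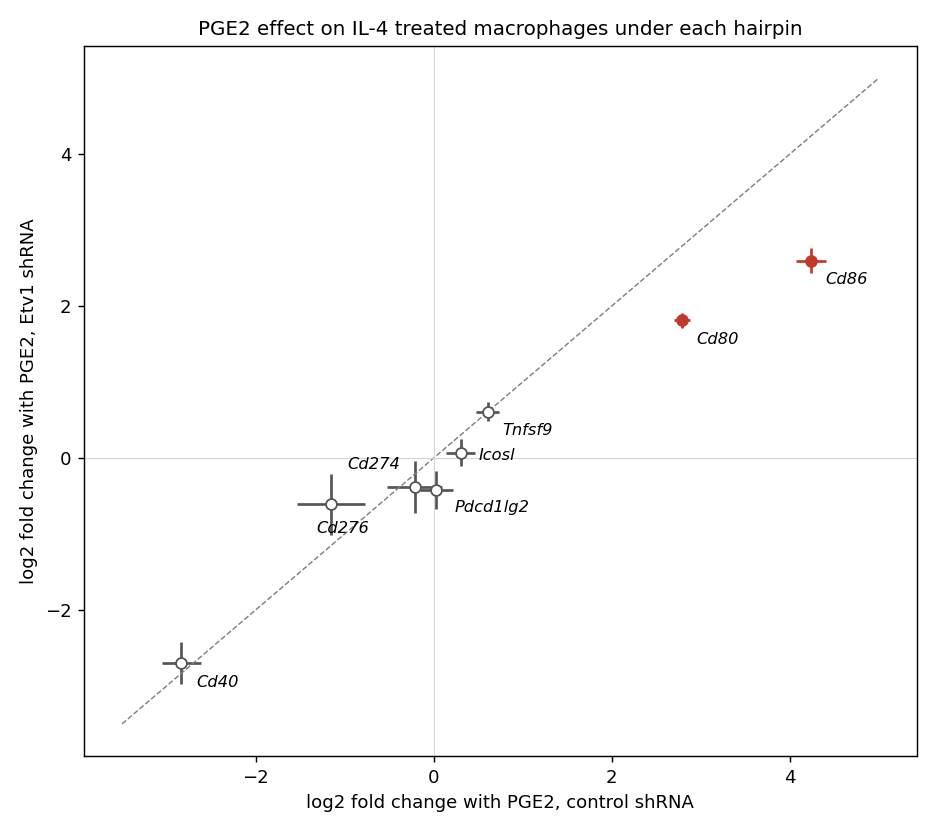
Log2 fold change with PGE2 on IL-4 under the Control shRNA (x axis) and the Etv1 shRNA (y axis), bars: SE, n = 3 per group; the dashed line marks equal effects, and red points are those whose difference passed the test. Cd86 (4.24 and 2.60) and Cd80 (2.79 and 1.81) lie below the line, and the difference passed the test for no other gene drawn; Tnfrsf9 is not drawn.

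The PD-1 ligands and Cd40 were lower under the Etv1 hairpin in each condition in which they could be measured. Cd274 had 33.5, 46.2 and 36.0 CPM with IL-4 and PGE2 in Etv1 shRNA cells, against 175, 217 and 182 CPM in Control shRNA cells (-2.31 ± 0.33, adjusted p = 6.83e-05). With IL-4 alone it had 48.9, 61.3 and 40.5 CPM in Etv1 shRNA cells, against 207, 259 and 199 CPM in Control shRNA cells (-2.14 ± 0.33, adjusted p = 0.000134). Unstimulated, the Etv1 shRNA cells had 11.6, 21.5 and 16.4 CPM and the Control shRNA cells 21.6, 63.4 and 27.7 CPM. The unstimulated groups touch at their edges, with replicate 2 the highest in both. The call (-1.14 ± 0.38, adjusted p = 0.0223) is fragile. It was lost without Control shRNA replicate 2 or Etv1 shRNA replicate 1 or 3 (-1.12 to -0.52, adjusted p 0.0628 to 0.124) and when the contrast's own groups were fitted alone (adjusted p = 0.166). Without all replicate 2 libraries it was -0.73 (adjusted p = 0.00193). Pdcd1lg2 had 3.61, 2.54 and 2.94 CPM with IL-4 and PGE2 in Etv1 shRNA cells, against 18.1, 10.9 and 15.6 CPM in Control shRNA cells (-2.28 ± 0.22, adjusted p = 4.29e-08). With IL-4 alone it had 3.83, 4.33 and 4.09 CPM in Etv1 shRNA cells, against 17.4, 10.8 and 15.1 CPM in Control shRNA cells (-1.83 ± 0.21, adjusted p = 7.06e-07). Both unstimulated groups held 1 count. IL-4 raised it under both hairpins, 132-fold in Etv1 shRNA cells (counting interval 23.2 to 5240, adjusted p = 1.4e-07) and 633-fold in Control shRNA cells (113 to 25000, adjusted p = 1.88e-11). The intervals overlap, and the difference of the IL-4 effects on Pdcd1lg2 did not pass the test (-2.12 ± 2.22, adjusted p = 0.746). Cd40 had 4.88, 3.86 and 3.37 CPM with PGE2 in Etv1 shRNA cells against 15.7, 6.10 and 12.3 CPM in Control shRNA cells (-1.51 ± 0.29, adjusted p = 0.000515). With IL-4 it had 30.3, 19.7 and 29.3 CPM in Etv1 shRNA cells against 91.4, 71.2 and 83.7 CPM in Control shRNA cells (-1.64 ± 0.20, adjusted p = 9.8e-06). Unstimulated it had 8.47, 6.62 and 7.34 CPM in Etv1 shRNA cells against 15.3, 13.8 and 13.03 CPM in Control shRNA cells (-0.94 ± 0.26, adjusted p = 0.00732). Neither hairpin's libraries overlapped the other's in any of these Cd40 comparisons.

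Icosl, in contrast, differed between the hairpins mainly before IL-4. Unstimulated it had 8.88, 10.9 and 10.2 CPM in Etv1 shRNA cells, against 24.4, 16.7 and 25.1 CPM in Control shRNA cells (-1.13 ± 0.15, adjusted p = 3.6e-06). With IL-4 it had 6.52, 8.38 and 6.51 CPM in Etv1 shRNA cells, against 9.66, 8.58 and 6.43 CPM in Control shRNA cells (-0.22 ± 0.18, adjusted p = 0.311). With IL-4 and PGE2 the difference of -0.46 ± 0.17 (adjusted p = 0.0258) was lost without Etv1 shRNA replicate 1 or 2 or Control shRNA replicate 3 (-0.44 to -0.42, adjusted p 0.0617 to 0.0915) and without normalization factors (-0.30, adjusted p = 0.14). Under the Etv1 hairpin Icosl differed between IL-4 and no stimulus by -0.49 ± 0.17 with no overlap, just short of the threshold (adjusted p = 0.0536). It passed without the filter (adjusted p = 0.0257), without normalization factors (0.0392), with RLE factors (0.0473), with the groups alone (0.0268), without IL-4 replicate 2 (-0.63, adjusted p = 0.0335) and without all replicate 2 libraries (-0.56, adjusted p = 0.027). IL-4 lowered 1 of the 9 under this hairpin, Tnfsf9 (-0.74 ± 0.12, adjusted p = 0.000213), against 7.16% of tested genes, and raised 4, against 10.9%: Pdcd1lg2, Cd40 (1.84 ± 0.25), Cd274 (1.57 ± 0.37) and Cd80. The Cd80 rise (0.34 ± 0.10, adjusted p = 0.0261) was lost without IL-4 replicate 1 or 2 or unstimulated replicate 1 or 3 (0.27 to 0.33, adjusted p 0.0726 to 0.114). The difference of the IL-4 effects, Etv1 minus Control shRNA, was tested too. It was called positive for 1 of the 9 (2.71% of tested genes) and called negative for 1 (1.81%). These were Icosl (0.91 ± 0.23, adjusted p = 0.0268) and Cd80 (-0.50 ± 0.14, adjusted p = 0.0493), in that order. The Icosl call was lost without Etv1 shRNA IL-4 replicate 2, Etv1 shRNA unstimulated replicate 1 or 3, Control shRNA IL-4 replicate 3 or Control shRNA unstimulated replicate 1 or 3 (0.77 to 0.92, adjusted p 0.0539 to 0.0959) and when the groups of the contrast were fitted alone (adjusted p = 0.0576). Cd80 lost its call without any 1 of 9 libraries, namely Etv1 shRNA IL-4 replicate 1 or 3, Etv1 shRNA unstimulated replicate 2 or 3, Control shRNA IL-4 replicate 1 or 3 or any unstimulated Control shRNA library (-0.53 to -0.42, adjusted p 0.0554 to 0.153). Without all replicate 2 libraries 4 members were called in this test: Icosl (1.01, adjusted p = 0.00438), Cd80 (-0.54, adjusted p = 0.0155), Cd274 (-1.45, adjusted p = 0.000404) and Cd40 (-0.67, adjusted p = 0.0247). With all libraries Cd274 did not pass this test (adjusted p = 0.363), and it passed without unstimulated Control shRNA replicate 2 alone (-1.62, adjusted p = 0.0152).

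Counted by condition, Etv1 shRNA cells were lower than Control shRNA cells for 7 of the 9 with IL-4 and PGE2 (26.7% of tested genes) and higher for 0 (27.6%). With IL-4 they were lower for 4 (25.6%) and higher for 1 (25.4%), and unstimulated lower for 4 (26.8%) and higher for 0 (24.9%). With PGE2 the members' median log2 difference was -1.34, against 0.00 over all tested genes. The gene higher with IL-4 was Tnfrsf9, 34 counts in Etv1 shRNA cells against 2 in Control shRNA cells (17.1-fold, counting interval 4.37 to 147, adjusted p = 0.00537), whereas with PGE2 it was lower (-0.74 ± 0.29, adjusted p = 0.0424). Unstimulated, its Etv1 shRNA libraries all lay above the Control shRNA libraries, at 1.61, 2.18 and 1.33 CPM against 0.440, 0.489 and 1.32 CPM. That difference was just short of the threshold (1.34 ± 0.55, adjusted p = 0.0506). It passed in DESeq2 (adjusted p = 0.0233), without normalization factors (0.0315), with RLE factors (0.0490), with the groups alone (0.0189) and without Control shRNA replicate 3 (1.87, adjusted p = 0.0166), but not without all replicate 2 libraries (0.95, adjusted p = 0.144). The PGE2 call was lost without Etv1 shRNA replicate 1 or 3 or Control shRNA replicate 2 or 3 (-0.78 to -0.52, adjusted p 0.0603 to 0.205), in DESeq2 (adjusted p = 0.126), without the filter (adjusted p = 0.0931), without normalization factors (adjusted p = 0.103) and with the groups fitted alone (adjusted p = 0.104), but was larger without all replicate 2 libraries (-1.29, adjusted p = 0.000168). Tnfsf9 was lower unstimulated, at 11.8, 13.1 and 11.3 CPM in Etv1 shRNA cells against 14.9, 14.2 and 14.8 CPM in Control shRNA cells (-0.27 ± 0.11, adjusted p = 0.0485). That call held under none of DESeq2, RLE factors, no normalization factor, no filter and the groups alone (adjusted p 0.0516 to 0.305), nor without Etv1 shRNA replicate 1 or 3 or any Control shRNA library (adjusted p 0.0615 to 0.169), and was kept without all replicate 2 libraries (-0.36, adjusted p = 0.0371). Cd276 passed the test in none of the 3 conditions with all libraries and no term for the replicate number (-0.79 ± 0.37 with IL-4, adjusted p = 0.0979). Without the replicate 2 libraries it was lower in Etv1 shRNA cells with IL-4 (-0.60, adjusted p = 0.000198) and unstimulated (-0.45, adjusted p = 0.00187). With all libraries and a term for the replicate number it was also lower with IL-4 (-0.77, adjusted p = 4.16e-06) and unstimulated (-0.62, adjusted p = 2.9e-05). Without replicate 2 the counts of called members were 7, 6 and 5 with IL-4 and PGE2, with IL-4 and unstimulated.

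**Figure D5:**
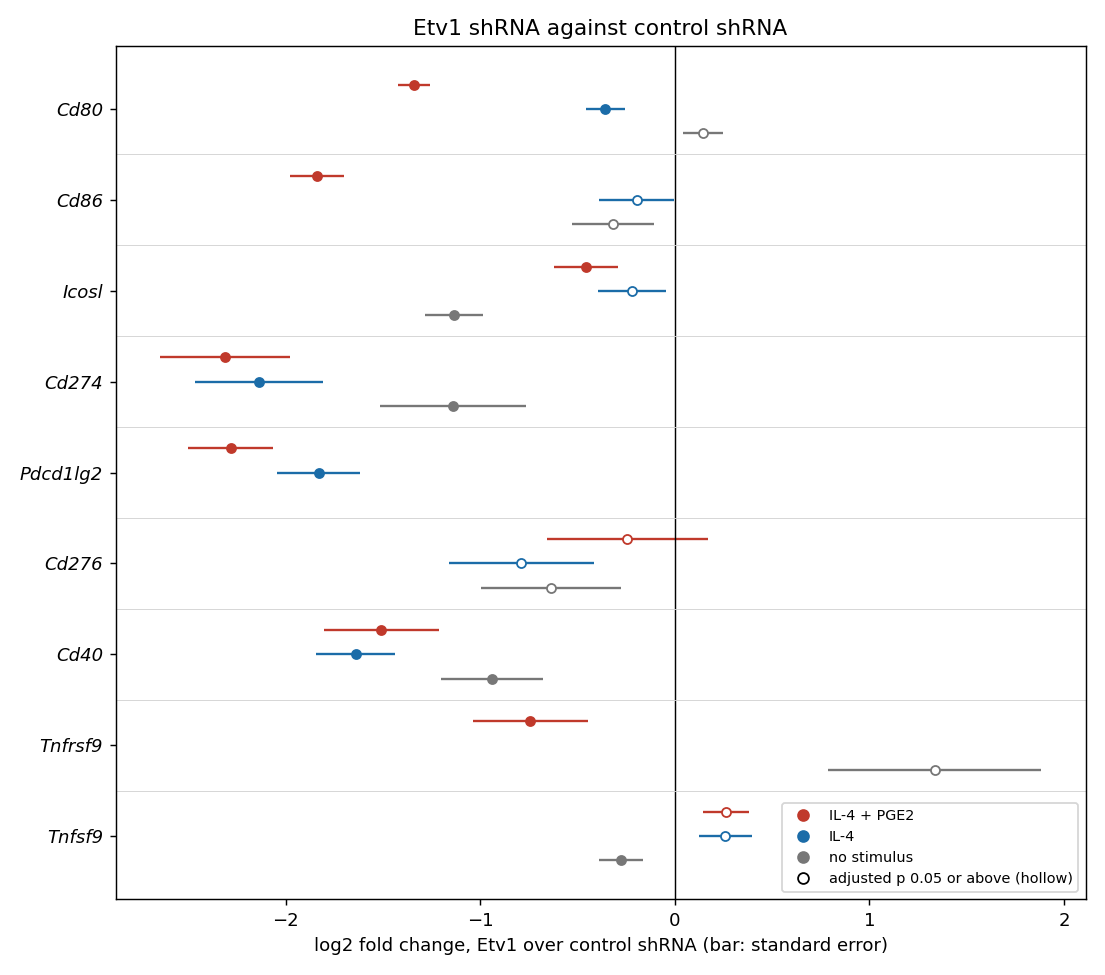
Log2 fold change of each gene, Etv1 over Control shRNA, in 3 conditions (x axis, bar: SE, n = 3 per group); filled points passed the test. Cd274, Pdcd1lg2 and Cd40 lie left of 0 in every condition drawn, whereas Cd80 and Cd86 lie far left only with IL-4 + PGE2 (-1.34 and -1.84); pairs in which a group held 3 or fewer counts are not drawn.

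Some markers of cell identity also differed between these groups. With PGE2 on IL-4 in wild type, 1 of 8 macrophage markers rose (29.9% of all tested genes) and 2 fell (29.5%). The difference of the PGE2 effects between hairpins was called for 0 of 8 macrophage markers and 0 of 4 dendritic cell markers tested. Of all tested genes, 6.03% were called positive in that test and 5.58% negative. In Etv1 shRNA cells 4 of 8 macrophage markers were lower with IL-4 and PGE2 (26.7% of all tested genes), 6 of 8 with IL-4 (25.6%) and 6 of 8 unstimulated (26.8%), and 1 of 8 was higher in each condition. Lyz2 stood at 4436 CPM in Etv1 shRNA cells and 12300 CPM in Control shRNA cells with PGE2. The F4/80 gene Adgre1 was higher, at 2506 CPM in Etv1 shRNA cells and 1337 CPM in Control shRNA cells. With PGE2 in wild type, dendritic cell markers summed to 22.1 to 25 CPM, against 8.37 to 11.7 CPM with IL-4. Of the 5 of 10 such markers tested, 4 rose (29.9% of all tested genes) and 1 fell (29.5%), with a median log2 change of 1.07. With PGE2 the sum was 22.7 to 30.6 CPM in Etv1 shRNA cells, below all Control shRNA libraries at 36.2 to 75.1 CPM, in the groups in which Cd80 and Cd86 were also lower. The markers did not move together there: of the 4 of 10 tested, 1 was higher in Etv1 shRNA cells (27.6% of all tested genes) and 1 lower (26.7%). Their median log2 difference was -0.30. With IL-4 alone the sum was 11.5 to 16.4 CPM in Etv1 shRNA cells and 10.8 to 22.6 CPM in Control shRNA cells. Cd207, the langerin gene, made up most of the sum (16.2 CPM with PGE2 and 4.54 CPM with IL-4 in wild type), the defining genes Xcr1, Clec9a and Siglech stayed at 0.143, 0.0935 and 0.0836 CPM with PGE2, and Zbtb46 fell (-0.69 ± 0.24, adjusted p = 0.0162). The part of these markers in the results was not tested.

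Among transducers of CD40 and 4-1BB signals, all 13 listed genes were measured. With PGE2 on IL-4 9 rose (29.9% of all tested genes) and 1 fell (29.5%) in wild type, with a median log2 change of 0.42 (all genes 0.01). Under the Control shRNA 9 rose (29.3%) and 1 fell (30.1%). In wild type, PGE2 raised Nfkb1, an NF-kB subunit gene, by 1.12 ± 0.05 (adjusted p = 1.16e-15) and Birc3, which encodes a ubiquitin ligase of TRAF complexes, by 0.76 ± 0.08 (adjusted p = 1.69e-08). The adaptor gene Traf5 fell (-0.78 ± 0.06, adjusted p = 6.07e-11). Valinomycin also raised 9 (19.4% of all tested genes) and lowered 1 (18.9%), among them the inhibitor genes Nfkbia (1.54 ± 0.10, adjusted p = 4.55e-08) and Tnfaip3 (0.95 ± 0.07, adjusted p = 5.63e-10). In Etv1 shRNA cells with IL-4 and PGE2, 9 of 13 were lower than in Control shRNA cells (26.7% of all tested genes) and 0 higher (27.6%), with Tnfaip3 at 18.6 CPM in Etv1 shRNA cells and 72.1 CPM in Control shRNA cells (-1.96 ± 0.10, adjusted p = 5.22e-12). Most were lower without PGE2 too. With IL-4 alone 8 were lower (25.6%) and 2 higher (25.4%), and unstimulated 7 were lower (26.8%) and 2 higher (24.9%).

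Of 12 genes known to regulate these ligands, PGE2 raised 5 (29.9% of all tested genes) and lowered 5 (29.5%) in wild type. Irf4 and Batf3, transcription factors of the IL-4 response, fell to 7.63 and 2.85 CPM with PGE2, against 54.2 and 34.3 CPM with IL-4 (-2.82 ± 0.14, adjusted p = 1.05e-11, and -3.58 ± 0.12, adjusted p = 2.41e-17), in the libraries where Pdcd1lg2 stayed at 49.9 CPM or more. Cmtm6, whose product stabilises PD-L1 protein, rose by 0.63 ± 0.05 (adjusted p = 3.12e-11), and Adam17, a protease that sheds surface proteins, fell (-0.67 ± 0.05, adjusted p = 1.35e-11). With valinomycin 2 of the 12 rose (19.4% of all tested genes) and 5 fell (18.9%). Irf1, an activator of the PD-L1 gene, rose by 1.03 ± 0.06 to 199 CPM, against 97.0 CPM with IL-4 (adjusted p = 7.38e-12). The valinomycin libraries were those in which Cd274 was highest. The part of these regulators in the ligand levels was not tested.

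Of 17 other ligand genes, 9 passed the filter in wild type, and with PGE2 3 of them rose (29.9% of all tested genes) and 4 fell (29.5%). In the shRNA experiment 10 passed, and Tnfsf4, the OX40 ligand gene, was higher in Etv1 shRNA cells in all 3 conditions: 22.2 CPM in Etv1 shRNA cells and 1.54 CPM in Control shRNA cells with IL-4 and PGE2 (3.85 ± 0.28, adjusted p = 3.7e-09). With IL-4 the levels were 12.3 CPM in Etv1 and 0.917 CPM in Control shRNA cells, and unstimulated 17.5 CPM in Etv1 and 1.59 CPM in Control shRNA cells. Tnfsf14 was lower in all 3 (-1.46 ± 0.20 with PGE2, adjusted p = 3.5e-06). Receptors that T cells carry for the ligands were mostly silent, with 5 of 12 passing the filter in wild type and Cd40lg at 0 counts with PGE2. Of the 5, Havcr2 (TIM-3), which macrophages also express, rose with PGE2 to 394.5 CPM, against 56.8 CPM with IL-4 (2.80 ± 0.07, adjusted p = 1.72e-17), and Cd28 to 57.2 CPM, against 32.6 CPM (0.81 ± 0.08, adjusted p = 1.87e-08). Havcr2 had 81.6 CPM unstimulated and 50.2 CPM with IL-4 and valinomycin. Cd28 had 55.45 CPM unstimulated and 59.5 CPM with IL-4 and valinomycin, so its PGE2 level lay near both.

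Across the 10 group means of log2 CPM, centred within each experiment, the members did not share a single pattern. Cd80 and Cd86 ran together (Pearson r = 0.989), and Cd274 and Pdcd1lg2 less so (r = 0.887). Tnfrsf9 ran with Cd86 (r = 0.86) and Cd80 (r = 0.839). The most negative pairs were Pdcd1lg2 and Tnfsf9 (r = -0.802), Tnfrsf9 and Cd276 (r = -0.766) and Cd40 and Tnfrsf9 (r = -0.723). Among genes with at least 5 CPM in a group of each experiment, the most alike were the vitamin D receptor gene Vdr for Cd86 (r = 0.993) and for Cd80 (r = 0.989), Socs1 for Pdcd1lg2 (r = 0.994), Cass4 for Tnfrsf9 (r = 0.993), Cnrip1 for Cd274 (r = 0.985), Clic4 for Cd40 (r = 0.981), Retreg1 for Icosl (r = 0.979), Gpr137b for Tnfsf9 (r = 0.971) and Lrmda for Cd276 (r = 0.964). These correlations are descriptions over 10 points that share libraries, come from experiments scaled apart and include the large PGE2 and IL-4 steps.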

How the data were processed

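Gene counts per library were deposited by the authors as raw counts, 1 table per library. The submitters' processing notes name STAR, featureCounts, deepTools and DESeq2 with the GRCm38 genome, and give no versions. Per the labels' protocols, libraries came from a stranded mRNA kit. Symbols, positions and exon lengths were taken from GENCODE M21 for 97.52% of identifiers, and identifiers with no symbol held 0.153% of counts. Groups follow the genotype and stimulus labels. Each experiment (12 wild type and 18 shRNA libraries) was fitted apart with edgeR 4.0.16 (TMM, filterByExpr, robust quasi-likelihood test, Benjamini-Hochberg over all tested genes, called under 0.05), in R 4.3.3, and the script was tested on simulated data. Alternatives were RLE factors, no factor, no filter, DESeq2 1.42.0, a replicate block, the contrast's groups alone and each library left out. Replicates differed by more than sampling noise (lowest chi-square per degree of freedom 1.25). A group of 3 counts or fewer gets a ratio of summed counts with an exact 95% interval, or no fold if both groups are that low. Genes named from a list are among the 4 with the smallest adjusted p in that list and comparison, besides the Etv1 check and defining markers near 0, and genes alike to a member are those with the highest r. The members and lists were chosen with earlier results of these data known.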

Additional observations from a re-analysis of the deposited data

Results flagged for a closer look

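The following results are listed because an effect differed between the hairpins by a test of the difference itself. The PGE2 effect on Cd86 differed by -1.64 on the log2 scale, Etv1 minus Control shRNA (adjusted p = 0.000405), and that on Cd80 by -0.98 (adjusted p = 5.96e-05). The fitted difference of the PGE2 effects on Tnfrsf9 was -4.64 (adjusted p = 0.00878), a value that depends on the prior count because the Control shRNA libraries with IL-4 held 2 counts in all. The IL-4 effect differed by 0.91 for Icosl (adjusted p = 0.0268) and by -0.50 for Cd80 (adjusted p = 0.0493), and both of these calls are lost when single libraries are left out.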

How the results depend on the processing

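Of 1758 refits of 131 results for the members, 1608 kept direction and side of the threshold, 73 lost a call and 48 gained one, and 29 turned direction, none of these with a call before or after. The cause was not tested. The number of members called for the IL-4 effect under the Etv1 shRNA was 8 with a replicate block, against 5 without. Same-numbered libraries deviated together in the shRNA experiment (mean r 0.168, 34 of 45 pairs over 0.1; 17 of 18 libraries correlated best with their own number, a hint from the data, not the design) and less in wild type (mean r 0.0419, 9 of 12 libraries). With the block Cd276 was lower under the Etv1 shRNA unstimulated (-0.62, adjusted p = 2.9e-05) and with IL-4 (-0.77, adjusted p = 4.16e-06). Other calls gained with the block were Cd276 under the Etv1 shRNA with PGE2 (-0.60, adjusted p = 0.000346) and with IL-4 (-0.34, adjusted p = 0.0385), its difference of the PGE2 effects (0.52, adjusted p = 0.0385), the Cd40 difference of the IL-4 effects (-0.73, adjusted p = 0.0362), Cd86 with IL-4 under the Etv1 (0.63, adjusted p = 0.00212) and Control shRNA (0.50, adjusted p = 0.00291), Icosl with IL-4 under the Etv1 shRNA (-0.50, adjusted p = 0.0494) and Cd40 with IL-4 and PGE2 against no stimulus in wild type (0.33, adjusted p = 0.034). The block ended the call of Tnfrsf9 with IL-4 under the Control shRNA (adjusted p = 0.0513). The number called for the difference of the IL-4 effects, 2, was 1 with the contrast's groups alone and 0 to 4 with libraries left out, 4 of them without replicate 2. Etv1 against Control shRNA unstimulated ran from 2 to 5 with libraries left out. Uncalled values that turned were Pdcd1lg2 with PGE2 under the Control shRNA (-0.031 without normalization factors, -0.13 to 0.20 with libraries left out) and the difference of the PGE2 effects on Tnfsf9 (-0.015 in DESeq2, -0.0082 with the block, -0.010 with RLE factors, -0.13 to 0.10 with libraries left out). Leaving libraries out also gave ranges of -0.13 to 0.022 for Cd80 with IL-4 in wild type, -0.020 to 0.27 for Cd80 with IL-4 and valinomycin against no stimulus, -0.065 to 0.28 for the Cd86 difference of the IL-4 effects and -0.14 to 0.31 for the Cd40 difference of the PGE2 effects. The other ranges were -0.24 to 0.015 for Cd40 with valinomycin, -0.21 to 0.11 for Tnfsf9 with PGE2 in wild type, -0.55 to 0.24 for the Cd276 difference of the IL-4 effects, -0.48 to 0.018 for Cd276 between hairpins with PGE2, -0.59 to 0.20 for Cd276 with IL-4 under the Control shRNA and -0.21 to 0.038 for Cd276 with IL-4 and PGE2 against no stimulus. Cd86 with IL-4 gained a call under both hairpins in DESeq2 (0.50 under the Control shRNA and 0.62 under the Etv1 shRNA). At these depths, groups with 3 counts or fewer give a ratio with a wide interval only.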
